A study of Mus musculus with 9 samples.

Results

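The 10 genes described here encode the enzymes and core subunits that write, maintain and remove DNA methylation, and the core of Polycomb repressive complex 2 (PRC2). They were chosen by name, and all 10 were found among the 15184 genes of the table: *Dnmt1*, *Dnmt3a*, *Dnmt3b*, *Uhrf1*, *Tet1*, *Tet2*, *Tet3*, *Ezh2*, *Eed* and *Suz12*. The data are 9 RNA-Seq libraries of polyA+ RNA from mouse embryonic fibroblasts (MEFs), which are cells cultured from the connective tissue of the embryo. There were 3 libraries of MEFs with the genotype Empty vector, and 3 each of the lines SAM1 and SAM2, both with the genotype *Hnrnpk*_SAM. In the SAM system (synergistic activation mediator), an inactive Cas9 and a guide RNA bring transcriptional activators to a promoter, here that of *Hnrnpk*, which encodes an RNA- and DNA-binding protein. By the study's methods, WT MEFs received the system by lentivirus and survived drug selection, the control plasmid carried a nontargeting guide, and the models used different guides. The list of materials, in the text version read here, gives the same sequence for the nontargeting guide and for 1 of the *Hnrnpk* guides, so what distinguishes the control from a line with that guide is uncertain. The guide of each line is not given in the labels, no other treatment is listed, and the sources used here do not say whether libraries of 1 group came from separate cultures. The p-values therefore take their error from differences among libraries of a group, which may be technical. In comparisons of a single line with Empty they do not cover variation between lines, of which there were 2. Where both lines were pooled as 1 group, the difference between the lines entered the error. The standard error of *Uhrf1*, for example, was 0.107 pooled and 0.035 by line. The pooled libraries were still counted singly, not as 2 lines.

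DNA methylation at CG sites is copied after replication by DNMT1, which UHRF1 brings to newly replicated DNA. It is set up anew by DNMT3A and DNMT3B, and the TET enzymes start its removal by oxidizing methylcytosine. PRC2 methylates histone H3 at lysine 27, a mark of repressed genes. EZH2 is its catalytic subunit, EED binds the mark and stimulates the enzyme, and SUZ12 holds the complex together. In fibroblasts, *Ezh2*, *Uhrf1* and *Dnmt1* are known as genes whose expression follows proliferation.

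The libraries held from 41759636 to 49026626 reads on the listed genes. *Hnrnpk*, the gene the guides target, was at 25058, 26098 and 26164 normalized counts in Empty replicates 1, 2 and 3, at 24102, 24045 and 23619 in SAM1, and at 26608, 26859 and 26221 in SAM2. All SAM1 libraries lay below and all SAM2 libraries above those of Empty. The log2 fold change was -0.11 ± 0.027 (SE) in SAM1 (limma, adjusted p = 0.00252) and 0.04 ± 0.027 in SAM2 (adjusted p = 0.159). These values depended on the processing. After quantile normalization *Hnrnpk* was called higher in SAM1 (0.09, adjusted p = 0.00501) and in SAM2 (0.22, adjusted p = 4.59e-06). With library sums set equal, it was 0.04 in SAM1 (adjusted p = 0.266) and called higher in SAM2 (0.15, adjusted p = 0.000335). Once a trend with gene length was removed, neither line was called (-0.06 in SAM1, adjusted p = 0.0980, and -0.0029 in SAM2, adjusted p = 0.940). By qRT-PCR and Western blot, the study reports that the *Hnrnpk*_SAM MEFs overexpressed the gene and its protein. In the RNA-Seq values used here no such rise was stable, so the directions below are those of the libraries labelled *Hnrnpk*_SAM. They are not those of an *Hnrnpk* level measured in these libraries. All 8 fibroblast markers looked up were listed, with summed normalized counts from 8.41e+05 to 1.18e+06 per library. Singly they moved both ways against Empty. In SAM1, 2 were called higher and 6 lower, and in SAM2, 3 were called higher, 3 lower and 2 were not called. *Epcam*, *Krt5*, *Krt14*, *Krt18*, *Ptprc*, *Adgre1* and *Cd3e*, which mark epithelial and immune cells, were not in the table. The other 2 epithelial markers, *Cdh1* and *Krt8*, summed to between 42.1 and 50.1 in Empty, between 110 and 113 in SAM1 and between 42.7 and 52.4 in SAM2, and both rose in SAM1 (*Cdh1* log2 1.38, adjusted p = 0.000106; *Krt8* 0.92, adjusted p = 0.0153). The other 2 immune markers, *Cd68* and *Csf1r*, summed to between 529 and 639 in Empty, between 753 and 800.1 in SAM1 and between 652 and 689 in SAM2. *Cd68* rose in the pooled comparison (0.55, adjusted p = 0.000648), and *Csf1r* fell in SAM2 (-1.01, adjusted p = 3.10e-07). The 4 endothelial markers summed to between 301 and 357 in Empty, between 4613 and 4988 in SAM1 and between 638 and 689 in SAM2, mostly through *Kdr*, and the part of these markers in the results was not tested. In bulk RNA, a change in the share of cells that express a gene cannot be told apart from a change in RNA per cell.

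All 10 genes passed the test between the 6 libraries labelled *Hnrnpk*_SAM and the 3 of Empty (limma on log2(normalized count + 1), adjusted p under 0.05 over all 15184 genes). Of these, 8 rose and 2, *Dnmt3a* and *Eed*, fell. Of all genes, 53.9% passed, 26.8% upward and 27% downward, so a call by itself was common. The median log2 fold change was 0.39 over the 10 genes and 0.01 over all genes, and the median size regardless of sign was 0.39 and 0.33. In 8 of the 10 genes the 6 libraries did not overlap with those of Empty, which held for 53.1% of all genes. The exceptions were *Tet2* and *Tet3*. Line by line, all 10 genes passed in SAM1 against Empty, 8 upward and 2 downward, beside 74.3% of all genes (37.3% upward, 36.9% downward). The same counts held in SAM2 against Empty, beside 70.5% of all genes (35.2% upward, 35.3% downward). Both comparisons share the Empty libraries. The median log2 fold change of the 10 genes was 0.33 in SAM1 and 0.53 in SAM2.

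**Figure D1:**
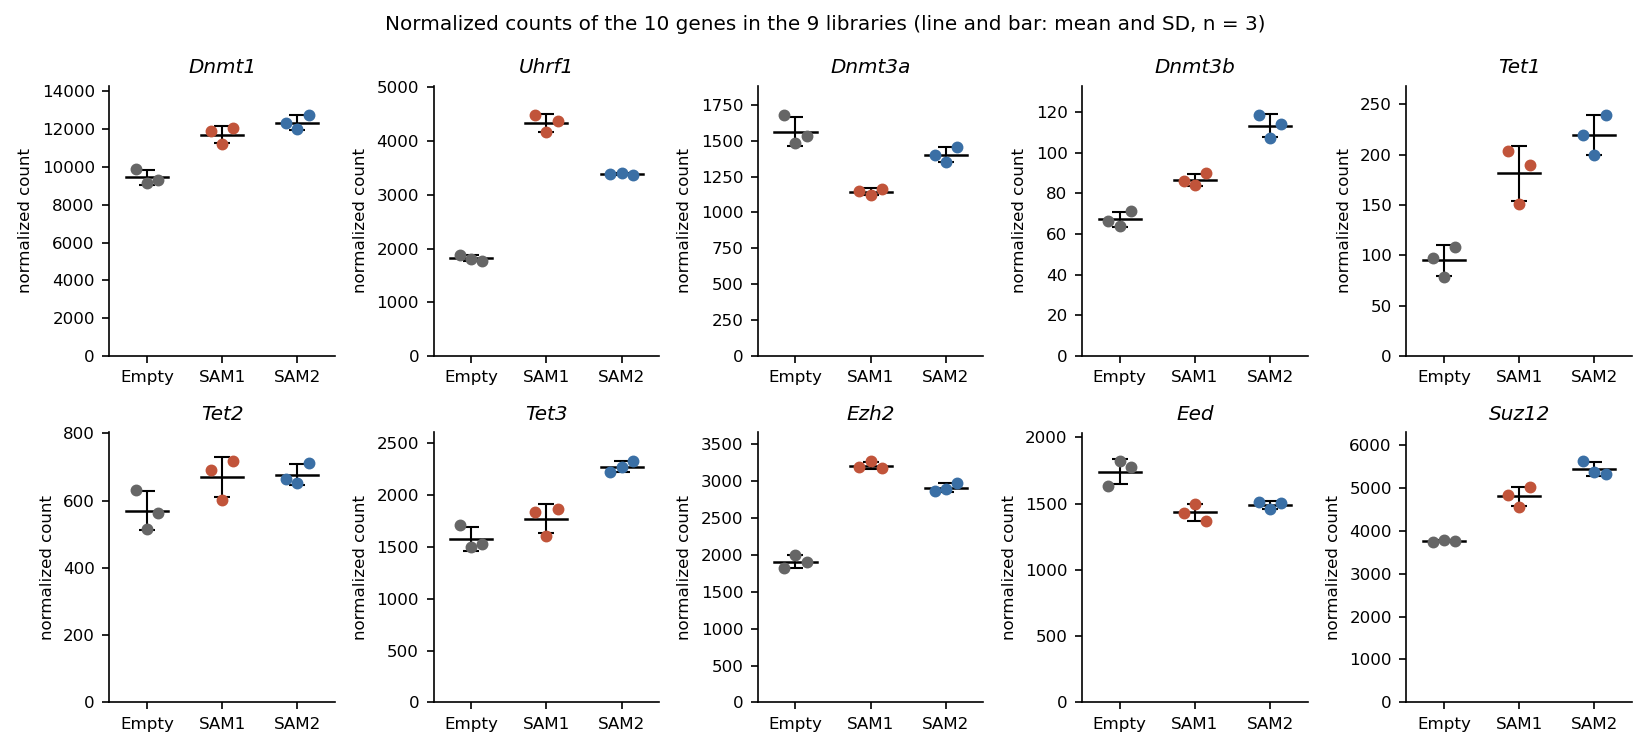
Normalized counts (y axis, from 0) of the 10 genes in each library, by group (x axis); points are libraries, and lines with bars are means with SD (n = 3 per group). *Uhrf1* and *Ezh2* were highest in SAM1, from 4163 to 4489 and from 3178 to 3269 normalized counts, while the *Dnmt3b* and *Suz12* libraries of SAM2 lay above all others.

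*Uhrf1* showed the widest rise on the fold scale of the maintenance genes. Its protein recognizes hemimethylated CG sites behind the replication fork and recruits DNMT1. It was at 1875, 1807 and 1771 normalized counts in Empty, at 4489, 4163 and 4372 in SAM1, and at 3391, 3414 and 3377 in SAM2. The groups did not overlap, and SAM2 lay between the other groups. The rise was 2.39-fold in SAM1 (log2 1.26 ± 0.035, SE; adjusted p = 2.74e-12) and 1.87-fold in SAM2 (log2 0.90 ± 0.035; adjusted p = 1.07e-10). *Dnmt1*, the maintenance methyltransferase itself, was at 9915, 9155 and 9292 normalized counts in Empty, at 11883, 11213 and 12043 in SAM1, and at 12299, 11986 and 12752 in SAM2. Every library of both lines was above every Empty library, and the lines overlapped. The rise was smaller than that of *Uhrf1*, at 1.24-fold in SAM1 (log2 0.31 ± 0.038; adjusted p = 7.24e-06) and 1.31-fold in SAM2 (log2 0.39 ± 0.038; adjusted p = 9.84e-07). The number of *Uhrf1* counts per *Dnmt1* count was accordingly 0.192 ± 0.0044 (SD, n = 3) in Empty, 0.371 ± 0.0074 in SAM1 and 0.275 ± 0.0100 in SAM2.

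The de novo methyltransferases moved in opposite directions. *Dnmt3a*, the main de novo enzyme of somatic cells, was at 1680, 1481 and 1530 normalized counts in Empty, at 1152, 1119 and 1163 in SAM1, and at 1398, 1352 and 1460 in SAM2. SAM1 was lowest, SAM2 lay in between, and no groups overlapped. The log2 fold change was -0.45 ± 0.049 in SAM1 (adjusted p = 2.33e-06) and -0.15 ± 0.049 in SAM2 (adjusted p = 0.0130). *Dnmt3b*, the enzyme known for methylating satellite repeats and the inactive X chromosome, was expressed at a low level, with 66.5, 64.1 and 71.3 normalized counts in Empty, 86.4, 83.9 and 89.8 in SAM1, and 119, 108 and 114 in SAM2. Here the 3 groups were stepped from Empty over SAM1 to SAM2 without overlap. The rise was 1.29-fold in SAM1 (log2 0.36 ± 0.10; adjusted p = 0.00547) and 1.68-fold in SAM2 (log2 0.75 ± 0.10; adjusted p = 1.88e-05). After quantile normalization the SAM1 value of *Dnmt3b* was -0.02, so its direction in SAM1 depended on the scaling. The pooled *Dnmt3b* value (0.55 ± 0.14, adjusted p = 0.00837) was then 0.31 and no longer called (adjusted p = 0.231). *Dnmt3a* counts per *Dnmt3b* count went from 23.3 ± 1.9 (SD, n = 3) in Empty to 13.2 ± 0.22 in SAM1 and 12.4 ± 0.53 in SAM2. Pooled over the lines, the *Dnmt3a* log2 fold change of -0.30 ± 0.096 (adjusted p = 0.0245) missed the threshold without Empty replicate 1 (-0.25, adjusted p = 0.106) or 3 (-0.32, adjusted p = 0.0599). With library sums set equal, it was -0.18 (adjusted p = 0.107). In SAM2 the call was lost without Empty replicate 1 (-0.10, adjusted p = 0.0588) or SAM2 replicate 2 (-0.13, adjusted p = 0.0621), and with library sums set equal (-0.05, adjusted p = 0.354).

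Among the TET dioxygenases, *Tet1* had the lowest level and the largest relative change. It is best known from embryonic stem cells and germ cells, and was at 97.2, 78.8 and 109 normalized counts in Empty, at 203, 151 and 189 in SAM1, and at 220, 199 and 239 in SAM2. Every library of both lines was above every Empty library. The rise was 1.90-fold in SAM1 (log2 0.93 ± 0.13; adjusted p = 3.21e-05) and 2.31-fold in SAM2 (log2 1.21 ± 0.13; adjusted p = 2.96e-06). *Tet2*, which lacks the CXXC DNA-binding domain that the others carry, was at 632, 516 and 564 normalized counts in Empty, at 691, 602 and 717 in SAM1, and at 665, 654 and 714 in SAM2. SAM1 replicate 2 was below Empty replicate 1, and SAM2 did not overlap with Empty. The log2 fold change was 0.23 ± 0.080 in SAM1 (adjusted p = 0.0182) and 0.25 ± 0.080 in SAM2 (adjusted p = 0.0129). *Tet3*, the most highly expressed of the family per length, was at 1710, 1497 and 1530 normalized counts in Empty, at 1838, 1609 and 1863 in SAM1, and at 2225, 2274 and 2324 in SAM2. SAM2 stood clear of both other groups, whereas SAM1 overlapped with Empty. The log2 fold change was 0.16 ± 0.060 in SAM1 (adjusted p = 0.0250) and 0.53 ± 0.060 in SAM2 (adjusted p = 3.57e-06).

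Single libraries and the normalization decided several of these smaller changes. After quantile normalization no *Tet2* call against Empty was left (pooled log2 0.18, adjusted p = 0.0914; SAM1 0.18, adjusted p = 0.0548; SAM2 0.17, adjusted p = 0.0780). The SAM1 call of *Tet2* was lost without Empty replicate 2 (log2 0.16, adjusted p = 0.0787) or 3 (0.23, adjusted p = 0.0516), and without SAM1 replicate 1 (0.21, adjusted p = 0.0626) or 3 (0.18, adjusted p = 0.0796). Its SAM2 call was lost without Empty replicate 2 (0.18, adjusted p = 0.0559) or SAM2 replicate 3 (0.21, adjusted p = 0.0584). The *Tet3* call in SAM1 was lost without Empty replicate 2 (0.13, adjusted p = 0.0871) or 3 (0.14, adjusted p = 0.0912), and without SAM1 replicate 1 (0.14, adjusted p = 0.0953) or 3 (0.12, adjusted p = 0.104). Pooled, the *Tet2* rise (0.24 ± 0.080, adjusted p = 0.0279) missed the threshold without Empty replicate 2 (0.17, adjusted p = 0.133) or 3 (0.24, adjusted p = 0.0840), SAM1 replicate 3 (0.22, adjusted p = 0.0515) or SAM2 replicate 3 (0.22, adjusted p = 0.0508). The pooled *Tet3* rise (0.35 ± 0.12, adjusted p = 0.0338) missed it without Empty replicate 2 (0.31, adjusted p = 0.117) or 3 (0.32, adjusted p = 0.105), or without SAM2 replicate 1 (0.32, adjusted p = 0.0584), 2 (0.31, adjusted p = 0.0574) or 3 (0.30, adjusted p = 0.0546).

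The long genes shared a pattern between libraries of 1 group. *Tet1*, *Tet2*, *Tet3* and *Dnmt3a* have from 15457 to 17740 exonic bases, and all were lowest in replicate 2 of both Empty and SAM1. Over 11901 genes with a mean above 50, split by exonic length into 10 classes of equal size, those in the longest class, from 12987 exonic bases, deviated from the group mean by a median log2 of -0.06 in Empty replicate 2 and -0.07 in SAM1 replicate 2. Those in the shortest class, up to 2670 bases, deviated by 0.06 in both. The opposite slope was seen in Empty replicate 1, from -0.05 in the shortest to 0.06 in the longest class, and the slopes in SAM2 were shallower, at most 0.02 either way. When each library's trend with exonic length was subtracted, an alternative chosen after seeing the data, all 10 genes passed pooled and in each line. In that fit the SAM1 log2 fold changes of *Tet2* and *Tet3* were 0.30 (adjusted p = 0.000226) and 0.23 (adjusted p = 0.000102), and that of *Dnmt3a* in SAM2 was -0.22 (adjusted p = 0.000104).

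**Figure D2:**
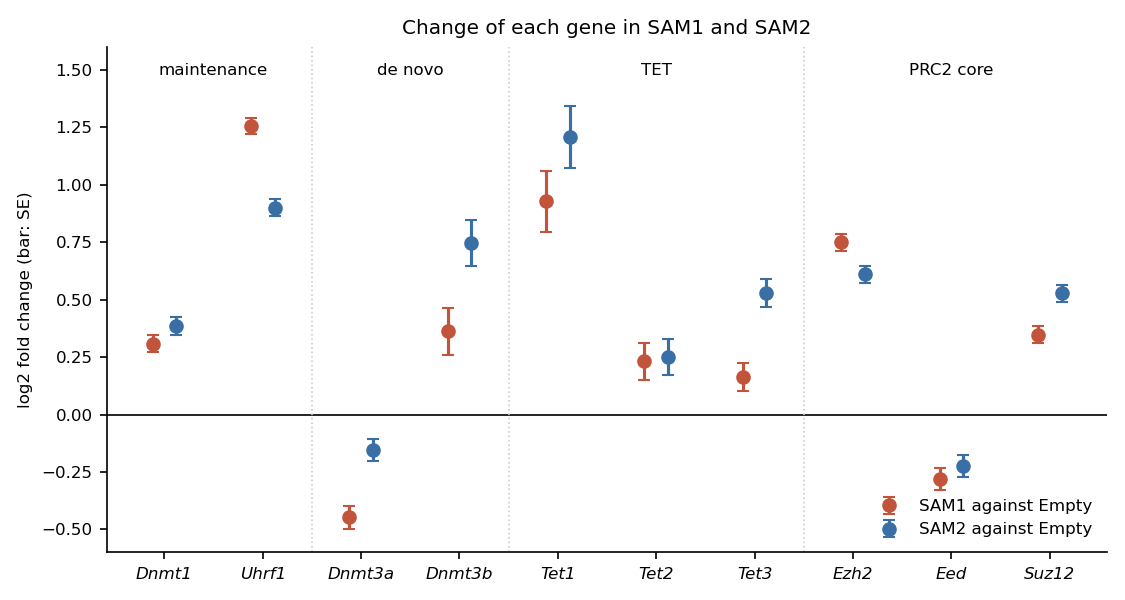
Log2 fold change against Empty (y axis; bars are SE) of the 10 genes (x axis, grouped by role), with SAM1 in red and SAM2 in blue. *Dnmt3a* and *Eed* lie below 0 in both lines and the other genes above, with *Dnmt3b* in SAM1 the value that turned sign under quantile normalization (-0.02).

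The core subunits of PRC2 did not move as 1 unit. *Ezh2*, the catalytic subunit, was at 1828, 1998 and 1903 normalized counts in Empty, at 3186, 3269 and 3178 in SAM1, and at 2865, 2896 and 2979 in SAM2. Both lines stood well above Empty, with SAM1 above SAM2 in every library. The rise was 1.68-fold in SAM1 (log2 0.75 ± 0.037; adjusted p = 6.39e-10) and 1.53-fold in SAM2 (log2 0.61 ± 0.037; adjusted p = 7.21e-09). *Suz12*, which binds the histone chaperones RBBP4 and RBBP7 and the accessory subunits, was at 3745, 3791 and 3769 normalized counts in Empty, at 4831, 4553 and 5007 in SAM1, and at 5612, 5367 and 5322 in SAM2. Here SAM2 was the highest group, and no groups overlapped. The rise was 1.27-fold in SAM1 (log2 0.35 ± 0.037; adjusted p = 1.48e-06) and 1.44-fold in SAM2 (log2 0.53 ± 0.037; adjusted p = 2.79e-08). *Eed*, the subunit that reads the H3K27 mark, was at 1636, 1819 and 1773 normalized counts in Empty, at 1429, 1501 and 1372 in SAM1, and at 1511, 1457 and 1502 in SAM2. Every library of both lines lay below every Empty library, and the lines overlapped. The log2 fold change was -0.28 ± 0.047 in SAM1 (adjusted p = 0.000118) and -0.22 ± 0.047 in SAM2 (adjusted p = 0.000809). A noncoding gene on the opposite strand, *E230029C05Rik*, shares 9.21% of the exonic bases of *Eed*, and the strand setting of the counting is not given in the sources used here. The same holds for *Bola3* and *Tet3*, which share 9.06%.

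**Figure D3:**
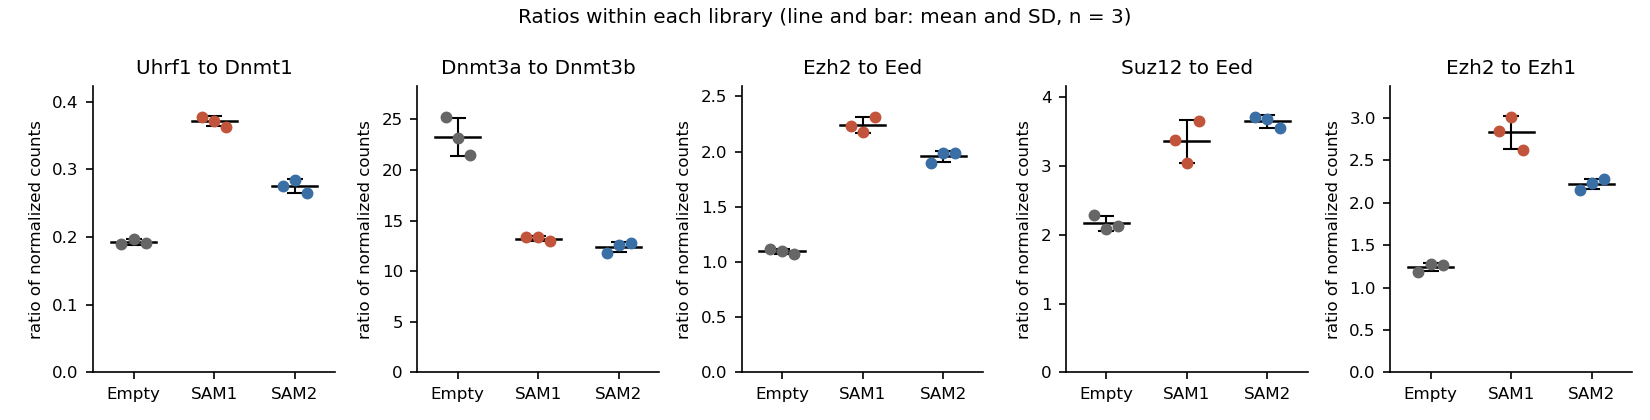
Ratios of the normalized counts of gene pairs (y axis, from 0) within each library, by group (x axis); lines with bars are means with SD (n = 3). *Ezh2* per *Eed* went from 1.10 in Empty to 2.24 in SAM1 and 1.96 in SAM2, and *Ezh2* per *Ezh1* from 1.24 to 2.83 and 2.22.

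The subunit ratios changed accordingly. *Ezh2* counts per *Eed* count were 1.10 ± 0.022 (SD, n = 3) in Empty, 2.24 ± 0.070 in SAM1 and 1.96 ± 0.052 in SAM2. *Suz12* per *Eed* was 2.17 ± 0.11, 3.35 ± 0.31 and 3.65 ± 0.091. *Ezh1*, the paralog of *Ezh2* that predominates in nondividing cells, fell in the pooled comparison (log2 -0.33 ± 0.073, adjusted p = 0.00390), and *Ezh2* per *Ezh1* was 1.24 ± 0.051, 2.83 ± 0.20 and 2.22 ± 0.061. Within the TET family, *Tet3* per *Tet1* went from 16.9 ± 2.5 in Empty to 9.84 ± 0.80 in SAM1 and 10.4 ± 0.88 in SAM2. These ratios of counts are not corrected for length and compare libraries, not genes.

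Promoter sequences were looked at because 8 of the 10 genes rose together. RefSeq promoters of GRCm38.p6 with a start within 1 kb of the annotated start were matched to GRCm39 for 8 genes, and the 250 bases before the start were searched on both strands. *Tet1* and *Tet3* were not among them. The motifs were CCAAT, bound by NF-Y, the CHR element TTTGAA, known from cell cycle genes, GGGCGG, the GC box, and the E2F motifs TTTCCCGC, TTTGGCGC, TTTCGCGC and TTTGCCGC. None of the sites found in the 8 promoters overlapped with one of another motif. CCAAT was present in 3 of the 8, *Uhrf1*, *Ezh2* and *Suz12*, against 33.8% of 32851 promoters. TTTGAA was in 3 (*Suz12*, *Dnmt3b* and *Eed*) against 16% of all. The GC box was in 5 (*Dnmt3a*, *Dnmt3b*, *Uhrf1*, *Tet2* and *Suz12*) against 32.7%, and an E2F motif in 1, *Suz12*, against 1.86%. *Eed* and *Dnmt3a*, among these genes, fell. All 8 sequences were richer in G and C, from 54.4% in *Eed* to 83.6% in *Tet2*, than the median promoter (52.4%). The shares of all promoters were not matched for this content, so they are no measure of excess. A match is a description of letters, and binding was not measured. The *Suz12* stretch is shown because it holds all 4 kinds of motif, and the short windows because they hold the CCAAT boxes of the genes with the clearest rises. They are 5′ to 3′ on the gene's strand in GRCm39, and capitals mark the sites of the CCAAT, CHR and E2F motifs on either strand. The *Suz12* stretch is chr11:79883682-79883890, on the plus strand before the first annotated exon. The *Uhrf1* window is chr17:56610295-56610324 on the plus strand, and the *Ezh2* windows are chr6:47572037-47572066, chr6:47572011-47572040 and chr6:47571965-47571994 on the minus strand, all within exons of annotated transcripts.
Suz12: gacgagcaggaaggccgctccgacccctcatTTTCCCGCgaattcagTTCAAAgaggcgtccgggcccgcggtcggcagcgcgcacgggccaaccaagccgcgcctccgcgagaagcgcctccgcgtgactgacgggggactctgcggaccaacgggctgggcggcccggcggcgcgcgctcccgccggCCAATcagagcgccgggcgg
Uhrf1: ccacagcgccagCCAATcaggaatcaagag
Ezh2, most upstream: ttcggccctctgATTGGacgggcgccctct
Ezh2, middle: ctctcgcatcctCCAATcggagaggcgctt
Ezh2, nearest the start: ccaaataaaagcgatggcgATTGGgttgct

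The lines were then compared with each other. Of the 10 genes, 6 passed the test of the difference between SAM2 and SAM1, beside 60.3% of all genes (31.1% higher and 29.2% lower in SAM2). *Dnmt3a* (log2 0.29 ± 0.049, adjusted p = 0.000202), *Dnmt3b* (0.38 ± 0.10, adjusted p = 0.00523), *Tet3* (0.36 ± 0.060, adjusted p = 0.000166) and *Suz12* (0.18 ± 0.037, adjusted p = 0.000871) were higher in SAM2. *Uhrf1* (-0.35 ± 0.035, adjusted p = 2.01e-06) and *Ezh2* (-0.14 ± 0.037, adjusted p = 0.00525) were lower in SAM2. For *Dnmt1* (0.08 ± 0.038, adjusted p = 0.103), *Tet1* (0.28 ± 0.13, adjusted p = 0.0874), *Tet2* (0.02 ± 0.080, adjusted p = 0.854) and *Eed* (0.06 ± 0.047, adjusted p = 0.322) no difference was called. The *Tet1* difference passed without Empty replicate 2 (0.28, adjusted p = 0.0483) and after quantile normalization (0.42, adjusted p = 0.0193). Guide and culture cannot be told apart in this comparison.

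Levels can be compared between genes only per length. In normalized counts per kb of exon, the order in Empty was *Dnmt1* (1112 ± 48, SD, n = 3), *Suz12* (499.5 ± 3.0), *Eed* (452 ± 25), *Uhrf1* (344 ± 10), *Ezh2* (262 ± 12), *Tet3* (94.6 ± 6.9), *Dnmt3a* (91.8 ± 6.1), *Tet2* (32.2 ± 3.3), *Dnmt3b* (10.9 ± 0.59) and *Tet1* (6.14 ± 0.97). The ranges of *Tet3* and *Dnmt3a* overlapped, while all other neighbours in this order were apart. In SAM1, *Uhrf1* (823 ± 31) came second after *Dnmt1* (1378 ± 52) and above *Suz12* (636 ± 30), and *Ezh2* (440 ± 6.9) stood above *Eed* (372 ± 17). In SAM2, *Suz12* (720 ± 21) was above *Uhrf1* (643 ± 3.5), and *Ezh2* (399 ± 8.1) was above *Eed* (387 ± 7.6). In that line the lowest *Ezh2* library, at 392.5, was level with the highest *Eed* library, at 392.1. *Tet3* (106 ± 8.4 in SAM1 and 136 ± 3.0 in SAM2) came apart from *Dnmt3a* (67.2 ± 1.4 and 82.4 ± 3.2) in both lines. Exonic length was summed over all annotated transcripts, so the levels are understated for genes with long alternative exons.

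Other genes that act with DNA methylation were described next. Of 25 partners looked up, 24 were listed, and 9 rose, 3 fell and 12 did not pass in the pooled comparison (median log2 0.07). The share that passed was near the 53.9% of all genes. In SAM1, 12 were called higher and 8 lower, and in SAM2, 14 higher and 5 lower, beside 74.3% and 70.5% of all genes. The largest rises were those of *Pclaf*, a PCNA-binding factor (1.09 ± 0.077, adjusted p = 3.29e-06), and *Zbtb38*, a reader of methylated DNA (0.68 ± 0.085, adjusted p = 0.000119). The largest falls were those of *Kdm1b*, an H3K4 demethylase needed for oocyte methylation (-0.44 ± 0.14, adjusted p = 0.0223), and *Tdg*, the glycosylase that removes the products of TET oxidation (-0.43 ± 0.11, adjusted p = 0.00833). The pooled *Kdm1b* call was lost without any of the Empty libraries (adjusted p = 0.0782, 0.0641 and 0.0528 without replicates 1, 2 and 3) and with library sums set equal (-0.32, adjusted p = 0.0585). Line by line, *Kdm1b* was called lower in SAM1 (-0.67, adjusted p = 5.82e-08) and in SAM2 (-0.21, adjusted p = 0.00212).

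The other PRC2 genes also moved both ways. There were 11 of them, namely the histone chaperone genes *Rbbp4* and *Rbbp7* and genes of accessory and alternative subunits. Of these, 3 rose, 3 fell, among them *Rbbp4*, and 5 did not pass (median log2 -0.02). Of all genes, 53.9% passed, 26.8% upward and 27% downward, so the split of this list was near that of all genes. The same shares stand beside the PRC1 and opposing genes below. *Phf19*, a Polycomb-like subunit (1.09 ± 0.065, adjusted p = 1.11e-06), and *Jarid2*, which joins the alternative form of the complex (0.48 ± 0.079, adjusted p = 0.000728), rose. *Ezh1*, given above, and *Aebp2*, the partner of *Jarid2* (-0.24 ± 0.062, adjusted p = 0.00945), fell. With library sums set equal, *Aebp2* was at -0.12 and not called (adjusted p = 0.0899). Of 21 PRC1 genes, 6 rose, 4 fell and 11 did not pass pooled (median log2 0.0015). In SAM1, 6 were called higher and 10 lower, and in SAM2, 9 higher and 5 lower, beside 74.3% and 70.5% of all genes. *Phc1* (0.53 ± 0.051, adjusted p = 2.15e-05) and *Cbx2* (0.51 ± 0.068, adjusted p = 0.000168), subunits of canonical PRC1, rose. *Pcgf5*, a subunit of variant PRC1 (-0.74 ± 0.096, adjusted p = 0.000149), and *Rnf2*, the ubiquitin ligase (-0.44 ± 0.14, adjusted p = 0.0265), fell. The pooled *Rnf2* call was lost without any of the Empty libraries (adjusted p = 0.0770, 0.0712 and 0.0735) and with library sums set equal (-0.32, adjusted p = 0.0669). Line by line, *Rnf2* was called lower in SAM1 (-0.69, adjusted p = 1.05e-09) and in SAM2 (-0.20, adjusted p = 0.000263). Among 11 genes whose products remove or oppose the H3K27 mark, 4 rose, 1 fell and 6 did not pass (median log2 0.12). They were led by the H3K27 demethylase *Kdm6b* (0.67 ± 0.12, adjusted p = 0.00138) and the H3K4 methyltransferase *Kmt2d* (0.43 ± 0.089, adjusted p = 0.00259), and *Nsd1*, an H3K36 methyltransferase, fell (-0.23 ± 0.073, adjusted p = 0.0243). The *Nsd1* call was lost without Empty replicate 1 (-0.15, adjusted p = 0.117) and with library sums set equal (-0.11, adjusted p = 0.218).

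**Figure D4:**
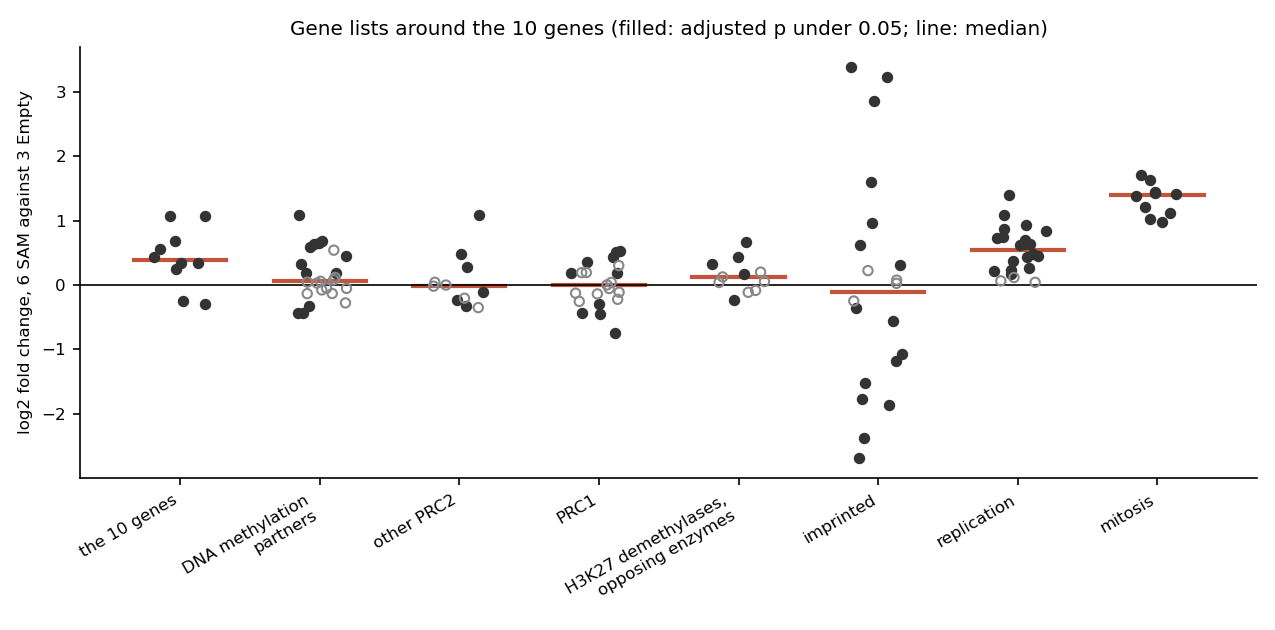
Log2 fold change of the 6 libraries labelled Hnrnpk_SAM against the 3 of Empty (y axis) for the genes of 8 lists (x axis), with filled points for adjusted p under 0.05 and a line at each median. The medians are 0.39 for the 10 genes, between -0.11 and 0.12 for the partner, Polycomb, opposing and imprinted lists, 0.55 for replication and 1.40 for mitosis.

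Most of the cell cycle genes looked up were higher in the same libraries. Of 22 replication genes, 19 rose and 3 did not pass in the pooled comparison (median log2 0.55, led by *Rrm2*, a ribonucleotide reductase subunit, at 1.39 ± 0.17, adjusted p = 0.000112). All 10 mitosis genes rose (median log2 1.40, led by the kinase gene *Aurkb* at 1.70 ± 0.095, adjusted p = 6.93e-07). Of all genes, 26.8% rose in that comparison. The mean log2 level of the replication list was 0.65 higher in SAM1 and 0.44 higher in SAM2 than in Empty. Relative to that mean, *Uhrf1* was still 0.60 higher in SAM1 and 0.46 higher in SAM2, and *Ezh2* 0.10 and 0.17 higher, with no overlap with Empty. *Tet1* was 0.28 higher in SAM1, where it overlapped with Empty, and 0.77 higher in SAM2, where it did not. *Dnmt1* was 0.34 lower in SAM1 and within the range of Empty in SAM2 (-0.06). *Dnmt3a* (-1.10 in SAM1 and -0.60 in SAM2) and *Eed* (-0.93 and -0.67) were much lower than in Empty by this measure. *Dnmt3b* (-0.29 and 0.30) and *Suz12* (-0.30 and 0.09), relative to the list, were lower than in Empty in SAM1 and higher in SAM2, without overlap each time. Relative to the mitosis list, which was 1.34 and 1.33 higher, no member was higher in either line, and *Uhrf1* (-0.09) and *Tet1* (-0.41) in SAM1 and *Tet1* (-0.12) in SAM2 overlapped with Empty. The part of the replication and mitosis genes in the changes of the 10 genes was not tested.

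**Figure D5:**
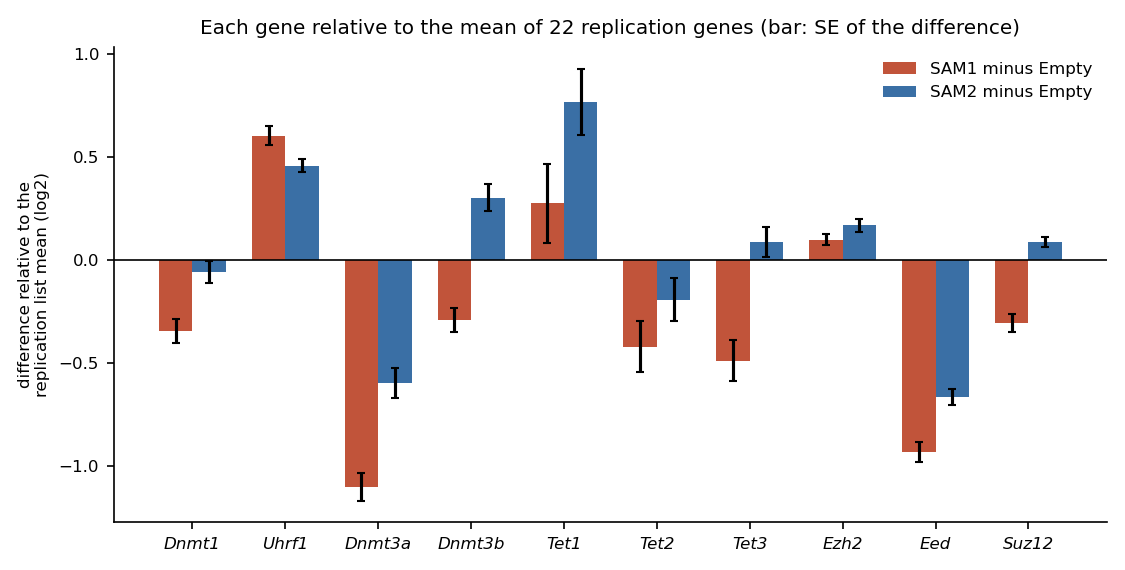
Difference from Empty, relative to the mean of the 22 replication genes on the log2 scale (y axis), for the 10 genes (x axis) in SAM1 (red) and SAM2 (blue); bars from 0 with SE of the difference of means. *Uhrf1*, *Tet1* and *Ezh2* lie above 0 in both lines, and *Dnmt1*, *Dnmt3a*, *Tet2* and *Eed* below it.

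Genes next to each member were set beside it. Within 1 Mb of *Suz12* on either side, 17 listed neighbours changed by a median log2 of 0.34 in SAM1 and 0.43 in SAM2, close to the 0.35 and 0.53 of *Suz12*, whereas the medians of chromosome 11 were 0.01 and 0.06. In SAM1, 8 of the 17 had risen at least as far. Around *Eed*, the 16 neighbours had medians of -0.27 and -0.08, and chromosome 7 had -0.27 and -0.24, near the -0.28 and -0.22 of *Eed*. *Ezh2* (0.75 and 0.61) rose further than the medians of its 16 neighbours (0.23 and 0.32), with 3 of them at least as high in SAM1 and 4 in SAM2. The medians of chromosome 6 were 0.13 and 0.24. *Uhrf1* exceeded its 48 neighbours (medians 0.15 and 0.12) with 2 of them at least as high in each line, and *Tet1* its 21 neighbours (0.01 and -0.06) with 2 at least as high in SAM1 and 1 in SAM2. *Dnmt1* rose among 50 neighbours with medians of -0.21 and -0.09. For *Dnmt3a*, 21 neighbours had medians of -0.20 and -0.13, and chromosome 12 had -0.09 and -0.20. In SAM2, where *Dnmt3a* was at -0.15, 10 of the 21 were at least as low. For *Dnmt3b*, 31 neighbours had medians of 0.20 and -0.05, and chromosome 2 had 0.27 and 0.16. In SAM1, where *Dnmt3b* was at 0.36, 11 of the 31 were at least as high. *Tet2* (9 neighbours, medians -0.02 and -0.17) and *Tet3* (33 neighbours, 0.07 and 0.11) rose further than the medians around them, though 11 of the 33 neighbours of *Tet3* were at least as high in SAM1. Karyotyping in the study found extra chromosomes and other chromosomal abnormalities in the *Hnrnpk*-overexpressing MEFs. The copy number of the regions above was not measured here, and its part in the changes of the 10 genes was not tested.

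By the root mean square difference of centred log2 values over the 9 libraries, the gene most like *Dnmt1* was *Cers6* (0.0243), and that most like *Eed* was *Sdhaf2* (0.0264). *Uhrf1* was closest to *Naalad2* (0.0430), *Ezh2* to *Scrn3* (0.0382), *Suz12* to *Nup160* (0.0334) and *Dnmt3a* to *Mmab* (0.0328). *Tet2* was closest to *Tnks* (0.0304), *Tet3* to *Plxnb2* (0.0328) and *Dnmt3b* to *Zfp251* (0.0499). *Tet1*, whose libraries scattered most, was least closely matched, by *Igsf10* (0.0923). No member was the closest gene of another member.

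Genes whose repression is known to depend on these systems were examined last. Of 24 imprinted genes, 20 were listed, and 7 rose, 9 fell and 4 did not pass in the pooled comparison (median log2 -0.11). Of all genes, 53.9% passed that comparison, 26.8% upward and 27% downward, which also stands beside the lists that follow. In SAM1, 8 imprinted genes were called higher and 11 lower, and in SAM2, 9 higher and 10 lower. Of all genes, 74.3% passed in SAM1 and 70.5% in SAM2. *Meg3*, named after its values were seen, was called higher in SAM1 (0.46) and lower in SAM2 (-0.31), and the low *Igf2* the other way. *Slc38a4*, an amino acid transporter gene repressed on the maternal allele (3.39 ± 0.18, adjusted p = 5.02e-07), went from 278 ± 13 normalized counts (SD, n = 3) in Empty to 2363 ± 68 in SAM1 and 3624 ± 69 in SAM2. *Peg3*, a paternally expressed zinc finger gene (3.24 ± 0.092, adjusted p = 1.54e-08), went from 182 ± 18 to 1870 ± 77 and 1584 ± 39. *Ndn* (-2.69 ± 0.56, adjusted p = 0.00290) and *Mest* (-2.38 ± 0.25, adjusted p = 3.89e-05), both also paternally expressed, fell in both lines. Allele-specific expression and DNA methylation were not measured. Of 28 developmental regulators and cell cycle inhibitors known as PRC2 targets, 11 were listed, and 3 rose, 3 fell and 5 did not pass pooled (median log2 0.13). In SAM1, 7 were called higher and 4 lower, and in SAM2, 4 higher and 5 lower. *Eomes* (0.42 in SAM1, -1.69 in SAM2), *Foxf1* (-0.91, 1.17) and *Pax3* (0.68, -0.25), named after their values were seen, were called in opposite directions in the lines. *Foxd1* (1.44 ± 0.13, adjusted p = 1.48e-05) and *Pax9* (0.48 ± 0.15, adjusted p = 0.0212) rose. The pooled *Pax9* call was lost without Empty replicate 2 (adjusted p = 0.0830) or 3 (adjusted p = 0.0544), and after quantile normalization (0.29, adjusted p = 0.0796). Line by line, *Pax9* was called higher in SAM1 (0.69, adjusted p = 1.92e-05) and in SAM2 (0.27, adjusted p = 0.0204). *Cdkn2b* (-0.75 ± 0.046, adjusted p = 1.40e-06) and *Cdkn2a* (-0.58 ± 0.10, adjusted p = 0.00102), the cell cycle inhibitor genes of 1 PRC2-repressed locus, fell. Of 22 germline genes whose promoters are silenced by DNA methylation, 5 were in the table, and 1, the low *Tdrd1*, rose in the pooled comparison while *Ddx4*, *Brdt*, *Taf7l* and *Piwil2* did not pass. Line by line, *Taf7l*, named after its values were seen, went in opposite directions (-1.27 ± 0.22, adjusted p = 0.000172 in SAM1, and 1.76 ± 0.22, adjusted p = 9.70e-06 in SAM2), and the low *Piwil2* rose in SAM1. Genes of the list outside the table were not analysed here.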

How the data were processed

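The study sequenced polyA+ RNA of 9 MEF libraries with a strand-directional kit. The authors aligned the reads to GRCm39 with TopHat2 and Bowtie2, used HTSeq for gene counts and removed depth differences with DESeq2 size factors. The deposited values are this normalized signal rather than raw counts. A filter of the authors (above 10 in 30% of libraries) was met by all 15184 genes when tested. A size factor moves every gene of a library together, so changes are relative to the bulk of genes.

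Every deposited value (100%, in all 9 libraries) was a whole multiple of 1 read within a tolerance of 0.1, which gave the reads on listed genes. The automatic check of these steps covers 8 of the libraries. Because the deposited unit is a normalized signal, limma 3.58.1 (R 4.3.3, trend, two-sided, Benjamini-Hochberg over all genes, threshold 0.05) was fitted to log2(value + 1). A 2-group fit pooled the SAM libraries, as the study did, and a 3-group fit compared the lines. A fold change on this scale understates that of low genes. Libraries of 1 group correlated at r from 0.995 to 0.997 and differed by more than sampling noise. Alternatives were other pseudocounts, a filter, quantile normalization, equal library sums, a replicate block, edgeR 4.0.16 and DESeq2 1.42.0 on the recovered reads, and each library left out. Removal of the length trend was added after seeing the data. Scripts were tested on simulated data.

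The genes and lists were chosen with earlier results of these data known, so counts over a list are descriptions. Genes named from a list are the 2 largest rises and falls past the pooled threshold (1 each for replication and mitosis). Genes marked as named after their values were seen are outside this rule. Genes with a mean at or below 20 are named only as low. The gene nearest in pattern to each member is also named. Coordinates are from GRCm39 (GENCODE vM39), in which 14791 of the names were found once. Promoter sequences are from RefSeq.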

Additional observations from a re-analysis of the deposited data

Results flagged for a closer look

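Of the 10 genes, 6 differed between the lines by the test of the difference itself (limma, adjusted p under 0.05). This was near the share of all genes, of which 60.3% passed that test. The SAM2 minus SAM1 log2 difference was 0.29 for *Dnmt3a*, 0.38 for *Dnmt3b*, 0.36 for *Tet3*, 0.18 for *Suz12*, -0.35 for *Uhrf1* and -0.14 for *Ezh2*. Each of these genes had moved in the same direction against Empty in both lines, so the lines differed in the size of the change. In *Kmt2d*, SAM1 replicate 2 lay below the other SAM libraries, at 3068 normalized counts against 3646 to 3987. It was the only library marked as outlying among the 36 genes looked at. A rate of about 1 in 20 by chance holds only if the 6 SAM libraries form 1 group. The lines differed in many genes, so the mark is a description. The longest genes were also low in SAM1 replicate 2.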

How the results depend on the processing

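Over the 40 results of the 10 genes (each gene in 4 comparisons) and 18 alternatives, 679 of 720 values kept their direction and their side of the threshold. A further 31 kept the direction and lost the call, 4 gained it and 6 turned sign. The number of the 10 genes called ranged from 7 to 10 pooled, from 8 to 10 in SAM1, from 9 to 10 in SAM2 and from 6 to 8 between the lines. With edgeR and DESeq2 on the recovered reads it was 10, 10, 10 and 6 each. Over all genes, at most 15184, the number called ranged from 6761 to 8468 pooled and from 10095 to 11631 in SAM1. In SAM2 it ranged from 9755 to 11095, and between the lines from 8235 to 9812. Calls were thus common under every alternative. *Dnmt1*, *Uhrf1*, *Ezh2*, *Suz12*, *Eed* and *Tet1* kept every call against Empty. Of these, *Eed* came closest to the threshold. Its pooled value ranged from -0.30 to -0.13 (largest adjusted p = 0.0496) and its SAM2 value from -0.27 to -0.12 (largest adjusted p = 0.0421). Of 467 values of the other named genes, 451 kept their call and 16 lost it.

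The values that turned sign were *Dnmt3b* in SAM1 under quantile normalization (-0.0171), and the *Tet2* difference between the lines under quantile normalization (-0.0152), equal library sums (-0.0201), the length trend removed (-0.1163), and SAM1 replicate 2 (-0.0563) or SAM2 replicate 3 (-0.0197) left out, within a range from -0.0563 to 0.0689 over the libraries. *Hnrnpk* turned under quantile normalization (0.1589 pooled, adjusted p = 0.0199, and 0.0944 in SAM1, adjusted p = 0.00501), equal sums (0.0912 and 0.035) and the length trend removed (-0.0029 in SAM2), and in SAM2 it was called higher under quantile normalization (0.2235, adjusted p = 4.59e-06) and equal sums (0.1475, adjusted p = 0.000335). The cause was not tested. Equal library sums raised the median of all genes by 0.12 pooled, 0.14 in SAM1 and 0.10 in SAM2. The share of calls that were higher went from 49.8% to 65.3% pooled, from 50.3% to 63.8% in SAM1 and from 49.9% to 61.3% in SAM2. The 10 genes kept their directions against Empty.

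In their deviations from the group means, same-numbered libraries correlated with r from 0.00237 to 0.117 (mean 0.0531), against a mean of -0.0265 for different numbers. Of the 9 libraries, 8 correlated best with their own number. The labels do not say that the numbers mark pairs, and the main fit did not pair them. What same-numbered libraries share was not tested. With the replicate block, 8 of the 10 genes passed pooled (*Dnmt3a*, adjusted p = 0.0509, and *Tet3*, adjusted p = 0.0645, did not), all 10 in each line, and 8 between the lines, with *Dnmt1* (adjusted p = 0.0272) and *Tet1* (adjusted p = 0.0168) added. Over all genes, 7343 passed pooled with the block and 8179 without. *Dnmt3b* and *Tet1*, at about 64.1 to 239 normalized counts, are the genes whose precision depth limits most.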
